A study of Sus scrofa with 12 samples.

Results

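The genes described here are the immediate early genes and the feedback genes of mitogen-activated protein kinase (MAPK) signalling in porcine oviduct epithelial cells. Members were taken by gene symbol: the Fos, Jun, EGR and NR4A families, ATF3, the IER genes, every dual specificity phosphatase (DUSP), the Sprouty and Spred genes, the ZFP36 and BTG families, NFKBIA, NFKBIZ and a few single genes. The symbols matched 52 of 30461 gene rows, of which 13259 carried a symbol. Of the 52 members, 42 had enough counts to be tested and 10 did not. No row carried the symbols of 14 further genes of these families, among them MYC, FOSB, BTG2, MAFF, CSRNP1 and DUSP2, so those genes were not analysed here.

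RNA was measured by bulk 3′ mRNA-seq, which reads the poly(A) end of transcripts, in 12 libraries of pig (Sus scrofa) oviduct epithelium, 4 per group. The first group, called fresh cells here, is single cells scraped from the oviduct. The second group is spheroids, cell clusters formed in culture in DMEM/F12, a basal culture medium; their library names carry FBS, a tag the labels do not explain. The third group is spheroids formed in a medium called only Incubation Medium, whose library names carry Diff. The labels give no breed, age, cycle stage, culture time or composition of either medium, name no transgene or added agent, and do not say whether the libraries of a group come from separate animals. The p-values therefore measure the spread between these libraries, which may be technical. Libraries held 5045187 to 6026881 counts for fresh cells, 7583553 to 8068187 for DMEM/F12 and 7585780 to 8603774 for incubation medium. The epithelial label was checked with 10 epithelial markers: 7 had a row (KRT8 had 2), and their summed level was 4215 to 4903 CPM (counts scaled to a fixed library total) for fresh cells, 7152 to 8707 for DMEM/F12 and 5175 to 7168 for incubation medium. The 8 rows did not all move alike. In DMEM/F12 7 rose and EPCAM fell, from a mean of 904 to 628 CPM. In incubation medium 6 rose and CLDN4 fell, from a mean of 1656 to 1011 CPM. Over all tested genes 35.1% and 35.8% rose.

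Immediate early genes are transcribed within minutes of a growth factor, stress or mechanical signal, without new protein synthesis. Kinases of the MAPK cascades (ERK, JNK and p38) phosphorylate transcription factors that are already bound at their promoters, and the mRNAs are short-lived. Many products are transcription factors, such as Fos and Jun, which pair to form AP-1. Others close the loop: DUSP phosphatases remove phosphate from the kinases, Sprouty and Spred proteins act on the pathway above ERK, and ZFP36 proteins bind AU-rich mRNAs and speed their decay. In epithelia the same genes are known to respond when tissue is cut, scraped or dissociated.

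Of 13 tested transcription factors among the members (Fos, Jun, EGR and NR4A genes, ATF3 and SRF), 10 fell from fresh cells to DMEM/F12 spheroids and 10 fell to incubation medium spheroids. FOS, EGR1 and NR4A1 fell the furthest, over 60-fold in each medium. In DMEM/F12 spheroids 25 of the 42 tested members fell against fresh cells and 13 rose; a call needs an adjusted p under 0.05. Over all 14070 tested genes, 35.7% were called lower and 35.1% higher. In incubation medium spheroids 24 members fell and 7 rose, against 35.8% lower and 35.8% higher over all tested genes. Falls of at least 4-fold were called for 17 members in DMEM/F12 (40.5%, against 9.37% of all tested genes) and 18 in incubation medium (42.9%, against 9.94%). Those of at least 16-fold were called for 7 members (16.7%, against 1.74%) and 8 (19%, against 1.92%). The median log2 fold change of the tested members was -1.10 in DMEM/F12 and -1.48 in incubation medium. Over all tested genes the median was -0.01 in each. These centres depend on the scaling (TMM). With library totals the medians were -1.03 and -1.50 for the members and 0.06 and -0.03 over all tested genes. In that setting 5323 genes were higher and 4609 lower in DMEM/F12, and 4948 and 5124 in incubation medium. Groups did not overlap, with spheroids lower, for 24 members in each medium (57.1% of the tested members). Over all tested genes the shares were 32.9% in DMEM/F12 and 32.5% in incubation medium. The 4 fresh cell libraries are shared by both comparisons. In bulk RNA, fewer cells that express a gene and less of its RNA per cell cannot be told apart.

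**Figure D1:**
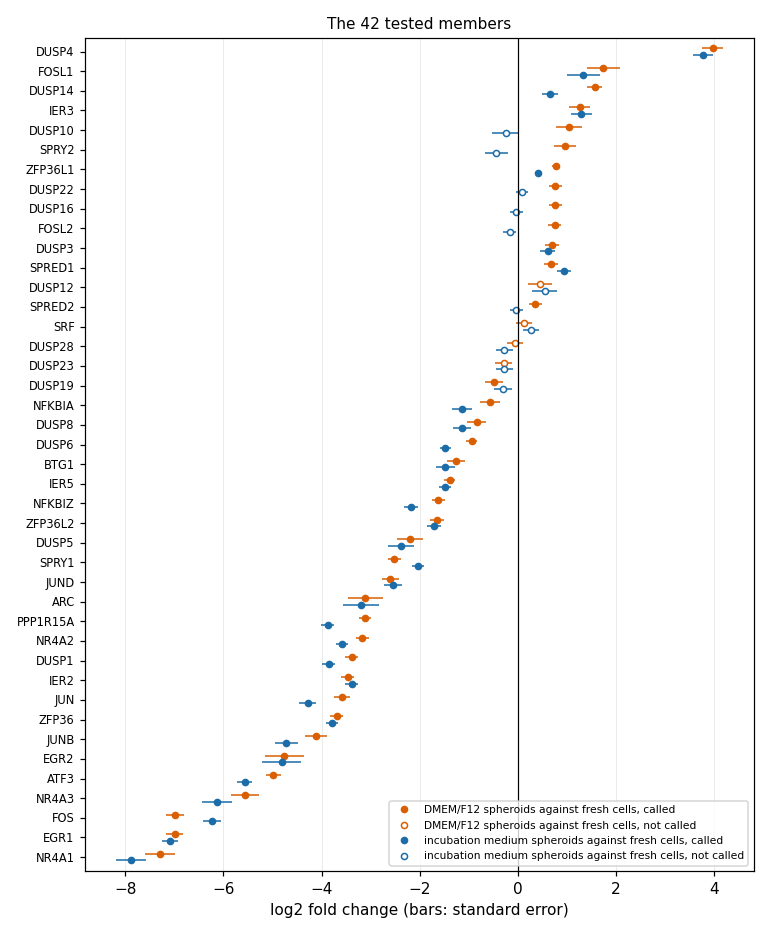
Log2 fold changes of the 42 tested members against fresh cells (horizontal axis), for DMEM/F12 spheroids (orange) and incubation medium spheroids (blue). Bars are standard errors and open circles are values that were not called; the members run from DUSP4 at the top, called higher in both media, to NR4A1 at the bottom, at -7.29 and -7.89.

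The 52 rows together held 3.79%, 4.82%, 3.60% and 3.75% of the counts of fresh cell replicates 1 to 4. In DMEM/F12 spheroids they held 0.632%, 0.624%, 0.568% and 0.574%, and in incubation medium spheroids 0.453%, 0.486%, 0.477% and 0.475%. Every fresh cell library lay above every spheroid library. In fresh cells 63.4% of the member counts fell on FOS, EGR1, JUND and ATF3. In DMEM/F12 spheroids 58.8% fell on ZFP36L1, IER3, JUND and NFKBIA, and in incubation medium spheroids 60.7% fell on ZFP36L1, IER3, JUND and ZFP36L2.

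**Figure D2:**
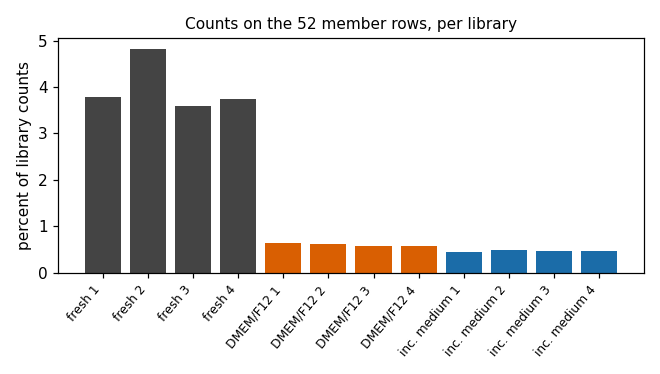
Percent of the counts of each library that fell on the 52 member rows, as bars from 0. The fresh cell bars reach 3.6 to 4.8% and the spheroid bars 0.453 to 0.632%.

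FOS (ENSSSCG00025046805), the prototype immediate early gene and the partner of Jun in AP-1, had one of the largest falls. FOS read 10799.9, 15556, 10813 and 11129 CPM in fresh cell replicates 1 to 4, 109, 109.9, 68.3 and 94.01 under DMEM/F12 and 157, 166, 172 and 151 under incubation medium. No spheroid library came near a fresh one, and all 4 incubation medium libraries lay above all 4 DMEM/F12 libraries. The log2 fold change against fresh cells was -6.98 (SE 0.19, adjusted p = 3.5e-12) in DMEM/F12, 127-fold lower, and -6.23 (SE 0.18, adjusted p = 7.8e-12) in incubation medium, 74.8-fold lower. Between the media FOS was higher in incubation medium, by 0.76 on the log2 scale (SE 0.15, adjusted p = 0.0021).

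The other Fos genes with a row were not called lower in either medium. FOSL1 (ENSSSCG00025077289; Fra-1), which is known to accumulate with lasting rather than brief ERK activity, averaged 24.4 ± 15.2 CPM (SD, n = 4) for fresh cells, 82.1 ± 16.1 for DMEM/F12 and 62.1 ± 15.6 for incubation medium. FOSL1 rose in both media (log2 fold change 1.74, adjusted p = 3.0e-04, and 1.33, adjusted p = 0.00238). Its fresh libraries spread widely, from 11.8 to 43.3 CPM, and overlapped those of incubation medium. FOSL2 (ENSSSCG00025076192; Fra-2) was at 16.9 ± 3.00, 28.6 ± 2.54 and 15.1 ± 1.58 CPM in the same order. It rose in DMEM/F12 (0.75, adjusted p = 1.3e-04) and was not called in incubation medium (-0.17, adjusted p = 0.275).

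**Figure D3:**
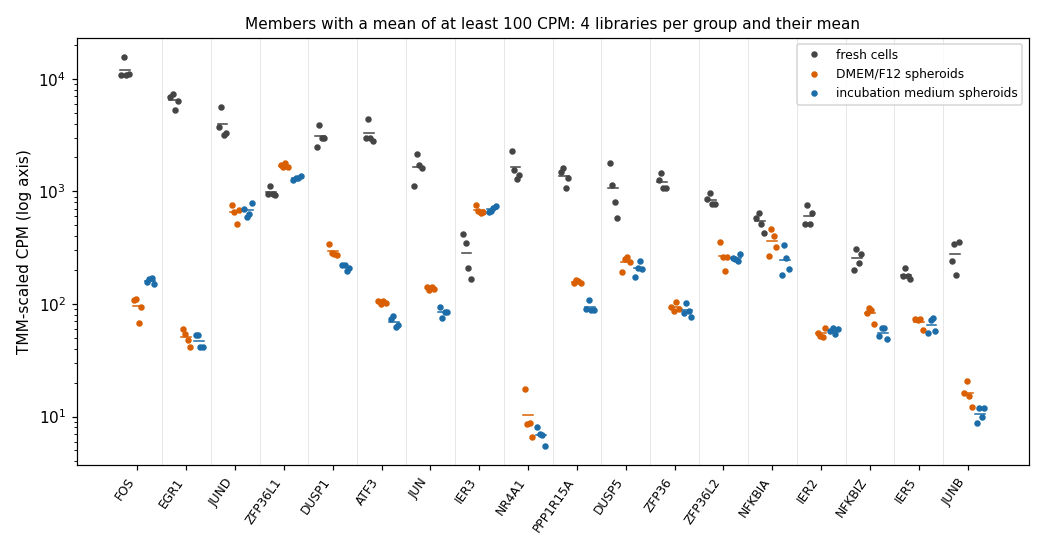
TMM-scaled CPM on a log axis for the 18 members with a mean of at least 100 CPM over the 12 libraries; points are libraries (4 per group) and short lines are group means. For 15 of the 18, every fresh library lies above every library of both spheroid groups; NFKBIA overlaps in DMEM/F12, and ZFP36L1 and IER3 are higher in all spheroid libraries.

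All 3 Jun genes fell in both media. JUN (ENSSSCG00025006487), the main Jun protein of AP-1 and a substrate of JNK, read 1107, 2166, 1708 and 1629 CPM in fresh cells, 141, 133, 142 and 135 in DMEM/F12 and 94.7, 75.6, 84.4 and 84.5 in incubation medium. These 3 groups do not overlap, and JUN was lower in incubation medium than in DMEM/F12 as well (log2 difference -0.70, adjusted p = 0.00418), the opposite order to FOS. Its changes from fresh cells were -3.59 (SE 0.16, adjusted p = 3.9e-10) and -4.28 (SE 0.17, adjusted p = 1.1e-10) on the log2 scale. JUNB (ENSSSCG00025065475), known to antagonise JUN at some promoters, read 239, 342, 180.4 and 357 CPM in fresh cells, 16.3, 20.7, 15.2 and 12.2 in DMEM/F12 and 8.83, 11.9, 9.85 and 11.96 in incubation medium. It fell the most of the Jun genes, at -4.11 and -4.72 (adjusted p = 1.8e-09 and 8.0e-10). JUND (ENSSSCG00025039173), the Jun protein that most cells make without stimulation, fell least, at -2.60 and -2.55 (adjusted p = 1.9e-08 and 2.2e-08). JUND read 3722, 5646, 3137 and 3316 CPM in fresh cells, 761, 654, 517 and 682 in DMEM/F12 and 693, 593, 628 and 795 in incubation medium, with the spheroid groups interleaved.

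ATF3 (ENSSSCG00025064494), a bZIP factor of the stress response that can pair with Jun, followed JUN. ATF3 read 2994, 4393, 3001 and 2782 CPM in fresh cells, 107, 101, 106 and 103 in DMEM/F12 and 73.1, 77.7, 62.7 and 65.2 in incubation medium. The DMEM/F12 libraries were nearly equal, and all lay above the incubation medium libraries. Log2 fold changes against fresh cells were -4.98 and -5.56 (SE 0.15 for both; adjusted p = 7.5e-12 and 3.6e-12), and the media differed by -0.58 (adjusted p = 0.00491). PPP1R15A (ENSSSCG00025018698; GADD34), a regulatory subunit that directs phosphatase to the initiation factor eIF2α and so restores translation after stress, read 1499, 1615, 1082 and 1325 CPM in fresh cells, 152, 164, 162 and 155 in DMEM/F12 and 90.8, 109, 87.8 and 87.7 in incubation medium. It too was highest in fresh cells and lowest in incubation medium. Its log2 fold changes against fresh cells were -3.13 and -3.88 (adjusted p = 1.0e-10 and 1.8e-11). The log2 difference between the media was -0.75 (adjusted p = 3.5e-04).

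EGR genes encode zinc finger factors induced through serum response factor. EGR1 (ENSSSCG00025058298) read 6912, 7266, 5333 and 6300.4 CPM in fresh cells, 59.97, 53.7, 47.5 and 41.2 in DMEM/F12 and 52.9, 52.7, 41.7 and 41.8 in incubation medium. The fall was 128-fold in DMEM/F12 (log2 fold change -6.99, SE 0.17, adjusted p = 1.2e-12) and 136-fold in incubation medium (-7.09, SE 0.17, adjusted p = 1.4e-12). The media overlapped for EGR1 (adjusted p = 0.648), where FOS differed. EGR2 (ENSSSCG00025076671), a related factor, averaged 54.9 ± 23.1 CPM in fresh cells, 1.99 ± 1.31 in DMEM/F12 and 1.94 ± 0.876 in incubation medium, at log2 fold changes of -4.76 and -4.81 (adjusted p = 9.4e-08 and 9.3e-08). SRF itself (ENSSSCG00025037683), the factor that binds the serum response element, was not called, at 5.04 ± 0.315, 5.48 ± 0.355 and 6.05 ± 1.01 CPM in the 3 groups. ARC (ENSSSCG00025058265), best known as an activity-regulated gene of neurons, fell from 16.96 ± 6.71 to 1.95 ± 0.518 and 1.85 ± 1.01 CPM (log2 fold change -3.11 and -3.20, adjusted p = 2.5e-06 and 2.1e-06).

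NR4A genes encode orphan nuclear receptors that need no known hormone and are controlled by their own transcription. NR4A1 (ENSSSCG00025013744; Nur77) read 2284, 1558, 1276 and 1409 CPM in fresh cells, 17.6, 8.60, 8.73 and 6.60 in DMEM/F12 and 8.11, 6.94, 6.89 and 5.51 in incubation medium. Its fall had the largest size of the 42 members in both media (log2 fold change -7.29, SE 0.30, adjusted p = 1.4e-10, and -7.89, SE 0.31, adjusted p = 9.0e-11). NR4A3 (ENSSSCG00025076003) went from 92.1 ± 31.00 to 1.93 ± 0.709 and 1.29 ± 0.377 CPM (-5.57 and -6.13, adjusted p = 1.2e-09 and 8.6e-10). NR4A2 (ENSSSCG00025031271; Nurr1) went from 92.1 ± 4.52 to 10.3 ± 2.04 and 7.66 ± 0.712 CPM (-3.17 and -3.58, adjusted p = 1.0e-10 and 4.0e-11). All 3 receptors thus kept no more than 11.1% of their fresh mean in DMEM/F12, and NR4A1 kept 0.637%.

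IER genes split. IER2 (ENSSSCG00025057329), a nuclear protein of the early response, read 517, 761, 516 and 643 CPM in fresh cells, 55.3, 52.2, 50.9 and 61.1 in DMEM/F12 and 57.6, 60.6, 54.5 and 59.6 in incubation medium. IER5 (ENSSSCG00025046855), which promotes heat shock factor activity, read 178, 208, 176 and 167 CPM in fresh cells, 73.7, 72.6, 73.04 and 58.5 in DMEM/F12 and 55.6, 71.7, 75.1 and 57.9 in incubation medium. Both fell without overlap, IER2 with log2 fold changes of -3.47 and -3.39 (adjusted p = 5.9e-11 and 6.9e-11) and IER5 with -1.39 and -1.49 (adjusted p = 1.0e-07 and 5.4e-08). IER3 (ENSSSCG00025077785; IEX-1), a survival gene that ERK phosphorylates and that also responds to NF-κB, rose instead. IER3 read 414, 349.7, 209 and 165 CPM in fresh cells, 753, 673, 644 and 654 in DMEM/F12 and 656, 675, 711 and 746 in incubation medium. Every spheroid library exceeded every fresh one, with log2 fold changes of 1.26 and 1.29 (SE 0.21 for both; adjusted p = 1.1e-04 and 8.5e-05). Between the media IER3 overlapped (adjusted p = 0.932). The fresh libraries of IER3 spread more than 2-fold.

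Of 7 tested MAPK phosphatases, 3 rose and 4 fell in DMEM/F12, and 1 rose and 4 fell in incubation medium. Over all tested genes 35.1% rose and 35.7% fell in DMEM/F12, and 35.8% rose and 35.8% fell in incubation medium. The same 4 fell in both media, and DUSP4 rose in both. DUSP1 (ENSSSCG00025005682; MKP-1), a nuclear phosphatase of p38 and JNK that is itself an immediate early gene, read 2474, 3888, 2969 and 3001 CPM in fresh cells, 344, 281, 278 and 273 in DMEM/F12 and 223, 220.4, 196 and 209 in incubation medium. The 3 groups do not overlap, with log2 fold changes of -3.39 and -3.86 against fresh cells (adjusted p = 1.0e-10 and 3.4e-11) and -0.47 between the media (adjusted p = 0.012). DUSP5 (ENSSSCG00025063343), a nuclear phosphatase specific for ERK, read 1782, 1138, 806 and 583 CPM in fresh cells, 194, 250.2, 259 and 235.5 in DMEM/F12 and 173, 209.7, 243 and 203 in incubation medium. Its log2 fold changes were -2.20 and -2.38 (SE 0.26 for both; adjusted p = 3.5e-06 and 1.7e-06), and its fresh libraries spread about 3-fold. DUSP6 (ENSSSCG00025065580), the cytoplasmic ERK phosphatase whose mRNA is widely read as a gauge of ERK output, went from 92.3 ± 12.2 CPM to 48.1 ± 4.72 and 33.1 ± 4.08 (-0.94 and -1.48, adjusted p = 4.7e-06 and 6.4e-08). DUSP8 (ENSSSCG00025044091), which acts on JNK and p38, went from 32.7 ± 9.30 to 18.2 ± 3.29 and 14.9 ± 1.62 CPM (-0.84 and -1.14, adjusted p = 9.8e-04 and 8.8e-05).

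DUSP4 (ENSSSCG00025008042; MKP-2), a nuclear phosphatase of ERK and JNK that is close in sequence to DUSP1, had the largest rise of the members. DUSP4 read 1.91, 1.79, 2.99 and 2.74 CPM in fresh cells, 35.6, 40.5, 38.6 and 33.1 in DMEM/F12 and 31.9, 38.6, 36.1 and 22.3 in incubation medium. These are at most 16 counts per fresh library. The log2 fold change was 3.97 (SE 0.21, adjusted p = 1.5e-09) in DMEM/F12 and 3.77 (SE 0.21, adjusted p = 2.6e-09) in incubation medium, with no difference called between the media (adjusted p = 0.363). A further pair of phosphatases of JNK and p38, DUSP10 and DUSP16, rose in DMEM/F12 and were not called in incubation medium. DUSP10 (ENSSSCG00025014111; MKP-5) averaged 13.9 ± 2.47, 28.9 ± 12.6 and 11.7 ± 2.84 CPM in fresh cells, DMEM/F12 and incubation medium (1.05, adjusted p = 0.00251; -0.25, adjusted p = 0.427). DUSP16 (ENSSSCG00025039025; MKP-7) averaged 27.7 ± 5.04, 47.1 ± 4.58 and 27.2 ± 2.96 CPM (0.76, adjusted p = 1.1e-04; -0.03, adjusted p = 0.848).

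The atypical DUSPs lack the MAPK-docking domain of the phosphatases above, and most are not induced as early genes. Of 7 tested, 3 rose and 1 fell in DMEM/F12, and 2 rose in incubation medium; over all tested genes 35.1% and 35.8% rose. DUSP14 (ENSSSCG00025073428; MKP-6) went from 48.3 ± 10.4 CPM to 143 ± 27.8 and 75.8 ± 5.34 (1.56 and 0.65, adjusted p = 7.1e-07 and 0.00199), without overlap between any of the groups. DUSP3 (ENSSSCG00025042025; VHR) went from 22.4 ± 5.77 to 36.3 ± 3.43 and 34.1 ± 2.65 CPM (0.70 and 0.60, adjusted p = 6.1e-04 and 0.00185). DUSP22 (ENSSSCG00025072234; JKAP), known to act on the JNK pathway, rose in DMEM/F12, from 32.3 ± 5.76 to 54.8 ± 3.97 CPM (0.76, adjusted p = 7.1e-05), and was at 34.3 ± 4.12 CPM in incubation medium (0.09, adjusted p = 0.546). DUSP19 (ENSSSCG00025060265) was called lower in DMEM/F12, at 4.60 ± 0.838 against 6.47 ± 0.779 CPM (-0.49, adjusted p = 0.0264). That call was lost without DMEM/F12 replicate 2 (-0.35, adjusted p = 0.0951) and without fresh cell replicate 2 (-0.44, adjusted p = 0.074) or 3 (-0.44, adjusted p = 0.0684; range over its alternatives adjusted p = 0.02 to 0.105). DUSP12, DUSP23 and DUSP28 were not called in any of the 3 comparisons; their group means lay between 3.14 and 14.7 CPM. DUSP12 was called higher in incubation medium without fresh cell replicate 2 (0.70, adjusted p = 0.032; range adjusted p = 0.032 to 0.178), and DUSP28 lower without incubation medium replicate 1 (-0.42, adjusted p = 0.0268; range adjusted p = 0.0268 to 0.37).

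Sprouty and Spred proteins are inhibitors of receptor tyrosine kinase signalling to Ras and Raf and are themselves induced by ERK. SPRY1 (ENSSSCG00025041087) fell from 127 ± 18.3 CPM to 22.1 ± 1.84 in DMEM/F12 and 31.1 ± 5.11 in incubation medium (-2.52 and -2.03, adjusted p = 1.4e-09 and 7.5e-09). Like FOS, it was higher in incubation medium than in DMEM/F12 (log2 difference 0.49, adjusted p = 0.0156). SPRY2 (ENSSSCG00025064180) had the largest difference between the media of the 42 members. SPRY2 read 37.9, 16.9, 19.6 and 21.2 CPM in fresh cells, 39.5, 48.9, 61.7 and 36.7 in DMEM/F12 and 15.03, 18.7, 18.7 and 18.3 in incubation medium. The media do not overlap (log2 difference -1.40, SE 0.22, adjusted p = 4.4e-04), while fresh cell replicate 1 overlaps the DMEM/F12 libraries. Against fresh cells SPRY2 rose in DMEM/F12 (0.96, adjusted p = 0.00135) and was not called in incubation medium (-0.44, adjusted p = 0.103). Without fresh cell replicate 2 it was called lower there (-0.57, adjusted p = 0.0422; range over its alternatives adjusted p = 0.0422 to 0.586).

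SPRED1 (ENSSSCG00025005796), which brings neurofibromin to Ras, rose in both media, from 14.9 ± 2.62 CPM to 23.8 ± 2.71 and 28.7 ± 4.10 (0.67 and 0.94, adjusted p = 8.3e-04 and 3.9e-05). SPRED2 (ENSSSCG00025037720), of the same family, averaged 18.96 ± 4.00 CPM in fresh cells, 24.4 ± 1.12 in DMEM/F12 and 18.6 ± 0.833 in incubation medium. Its log2 fold change in DMEM/F12 was small (0.36, adjusted p = 0.022) and was not called without fresh cell replicate 3 (0.29, adjusted p = 0.0682) or 4 (0.26, adjusted p = 0.0715; range adjusted p = 0.00436 to 0.0715). Within these inhibitors, then, SPRY1 stood lower and SPRED1 higher in both kinds of spheroid.

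ZFP36 proteins bind AU-rich elements in mRNAs, including those of FOS and of cytokines, and recruit the decay machinery. ZFP36 (ENSSSCG00025046426; tristetraprolin), the inducible member, read 1267, 1459, 1075 and 1065 CPM in fresh cells, 94.3, 86.02, 104 and 91.01 in DMEM/F12 and 83.9, 103, 86.9 and 77.1 in incubation medium. It fell 12.96-fold and 13.9-fold (log2 fold change -3.70 and -3.79, adjusted p = 3.4e-11 and 2.5e-11). ZFP36L2 (ENSSSCG00025026396) read 864, 966, 775 and 767 CPM in fresh cells, 358, 261, 197 and 260.4 in DMEM/F12 and 257, 253, 241 and 275 in incubation medium (-1.65 and -1.72, adjusted p = 1.7e-07 and 1.2e-07). ZFP36L1 (ENSSSCG00025013553) went the other way, with every spheroid library above every fresh one. ZFP36L1 read 957, 1124, 952 and 932 CPM in fresh cells, 1698, 1653, 1771 and 1656 in DMEM/F12 and 1271, 1313, 1326 and 1364 in incubation medium. The log2 fold changes were 0.77 and 0.41 (SE 0.07 for both; adjusted p = 4.2e-07 and 1.8e-04), and DMEM/F12 exceeded incubation medium (log2 difference -0.36, adjusted p = 0.00267). BTG1 (ENSSSCG00025068047), an antiproliferative protein that also acts in deadenylation, fell from 32.1 ± 1.64 CPM to 13.3 ± 3.54 and 11.5 ± 2.69 (-1.27 and -1.48, adjusted p = 3.1e-05 and 7.7e-06).

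NFKBIA and NFKBIZ are NF-κB targets whose products act back on NF-κB. NFKBIZ (ENSSSCG00025043617; IκBζ), a nuclear cofactor, read 199, 307, 233 and 277 CPM in fresh cells, 83.1, 91.5, 88.8 and 66.9 in DMEM/F12 and 52.02, 61.3, 60.7 and 49.2 in incubation medium. It fell in each medium (-1.62 and -2.19, adjusted p = 1.3e-07 and 8.7e-09), and was lower in incubation medium than in DMEM/F12 without overlap (-0.57, adjusted p = 0.00856). NFKBIA (ENSSSCG00025067390; IκBα), which holds NF-κB in the cytoplasm, read 581, 637, 513 and 431 CPM in fresh cells, 266, 463, 404 and 318 in DMEM/F12 and 180.0, 336, 257 and 205 in incubation medium. Its log2 fold change in DMEM/F12 was -0.58 (adjusted p = 0.019) with overlapping libraries. It was not called without DMEM/F12 replicate 1 (-0.44, adjusted p = 0.0663) or 4 (-0.50, adjusted p = 0.0597), or without fresh cell replicate 2 (-0.48, adjusted p = 0.0618; range adjusted p = 3.3e-04 to 0.0663). In incubation medium it was -1.14 (adjusted p = 1.5e-04) without overlap.

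The 10 members too low to test had at most 12 counts in any library, and their mean over the 12 libraries was at most 0.653 CPM. They were SPRY4, DUSP27, DUSP13, EGR4, DUSP26, DUSP15, EGR3, DUSP9, SPRED3 and SPRY3. SPRY3 had 0 counts in every library, which does not show that it is absent. EGR3 and EGR4, which belong to the same family as EGR1, stayed at or under 9 counts in fresh cells too. DUSP27 had 8, 7, 5 and 11 counts in incubation medium and 0 or 1 in every other library. It was thus higher there without overlap, by counts only. DUSP26 had 1, 3, 1 and 4 counts in fresh cells, 0 in every DMEM/F12 library and at most 1 in incubation medium. By scaled CPM it lay lower in both media without overlap, as did EGR3, which had at most 2 counts in any library. DUSP15 had 0 counts in every fresh library and 1, 1, 2 and 4 in incubation medium. These were picked after their values were seen, and for all 10 members the counts per library were too few for a test.

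Incubation medium and DMEM/F12 spheroids were then set against each other to ask how the medium bears on these genes; for each gene this is also the test of whether its change against fresh cells differs between the media. Of the 42 tested members, 15 were lower and 2 higher in incubation medium, against 12.3% lower and 12.7% higher over all tested genes. With library totals in place of TMM scaling 17 members were lower and 2 higher, and over all genes the share of calls that were higher went from 50.9% to 33.4%. The median log2 difference of the members was -0.25. The 15 lower members take in AP-1 and stress genes (JUN, ATF3, FOSL2, PPP1R15A, NR4A2), phosphatases (DUSP1, DUSP6, DUSP10, DUSP14, DUSP16, DUSP22), inhibitors (SPRY2, SPRED2, NFKBIZ) and ZFP36L1. The 2 higher ones were FOS and SPRY1. Differences were small beside those against fresh cells: only SPRY2 and DUSP10 passed 2-fold (4.76% of members, and 3.38% of all tested genes called at least 2-fold lower). DUSP10 read 21.4, 20.3, 47.4 and 26.4 CPM in DMEM/F12 and 8.35, 10.4, 13.9 and 14.2 in incubation medium (log2 difference -1.30, SE 0.26, adjusted p = 0.00223), with DMEM/F12 replicate 3 far above the other libraries.

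**Figure D4:**
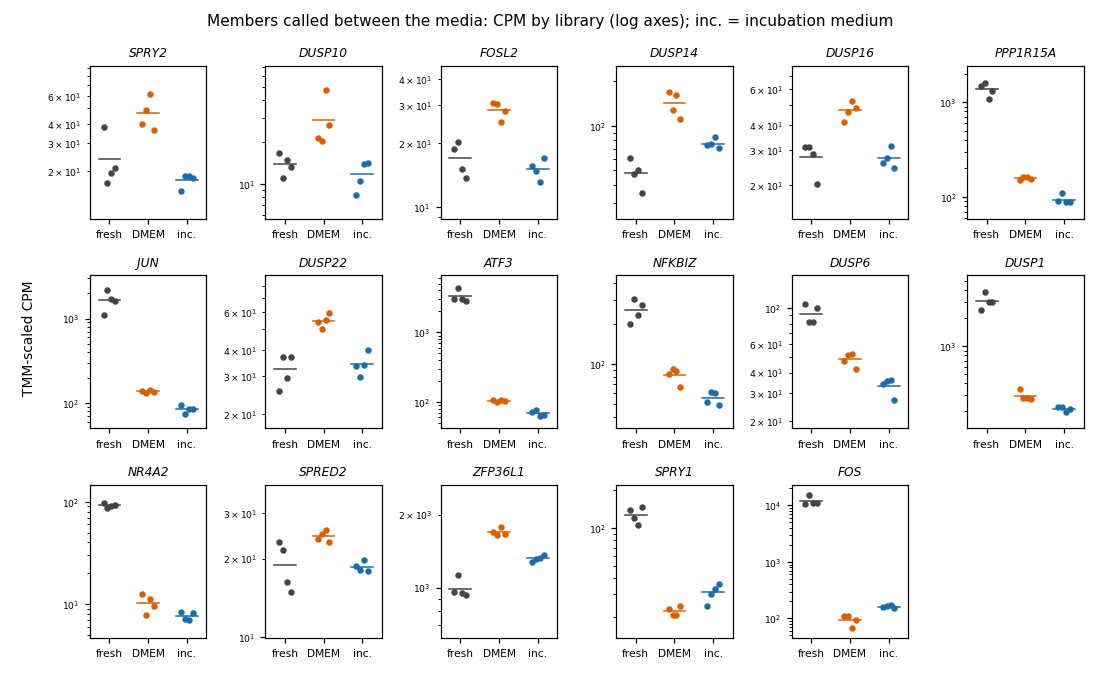
TMM-scaled CPM by library on log axes, with a scale of its own in each panel, for the 17 members called between the media, ordered from the largest deficit in incubation medium (SPRY2) to FOS. Points are libraries and lines are group means. In SPRY2, DUSP10, FOSL2, DUSP16, DUSP22 and SPRED2 the DMEM/F12 libraries stand above incubation medium, which lies near fresh cells. In JUN, ATF3, PPP1R15A and DUSP1 fresh cells stand highest and incubation medium lowest.

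In incubation medium the 7 members called higher than fresh cells were ZFP36L1, IER3, DUSP14, FOSL1, DUSP3, DUSP4 and SPRED1. For 6 members that rose in DMEM/F12 and were not called in incubation medium (SPRY2, DUSP10, FOSL2, DUSP16, DUSP22 and SPRED2), the difference between the media was itself called, though the comparisons share libraries. Those differences were -0.92 for FOSL2 (adjusted p = 1.7e-04), -0.79 for DUSP16 (adjusted p = 5.1e-04), -0.68 for DUSP22 (adjusted p = 0.00107) and -0.39 for SPRED2 (adjusted p = 0.0342). The SPRED2 call was lost in each of 8 fits that left out 1 library (range over its alternatives adjusted p = 0.00717 to 0.0818). DUSP6 and DUSP14 were also lower in incubation medium (log2 difference -0.54, adjusted p = 0.00417, and -0.91, adjusted p = 6.4e-04). NR4A2 was called at -0.42 (adjusted p = 0.0394). It was not called without DMEM/F12 replicate 1, 3 or 4 (-0.30, adjusted p = 0.129; -0.38, adjusted p = 0.0937; -0.45, adjusted p = 0.0555) or without incubation medium replicate 2 or 3 (-0.38, adjusted p = 0.101; -0.38, adjusted p = 0.102; range adjusted p = 0.0082 to 0.129).

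The replicate numbers paired the libraries, and with the replicate number as a block 3 further members were called lower in incubation medium than in DMEM/F12. NR4A1 had a log2 difference of -0.59 (adjusted p = 0.161) without the block and -0.56, adjusted p = 0.0157, with it (range over its alternatives adjusted p = 0.0157 to 0.578). JUNB had -0.60 (adjusted p = 0.075) and -0.60, adjusted p = 0.0206, with the block (range adjusted p = 0.0206 to 0.211). NFKBIA had -0.57 (adjusted p = 0.0518) and -0.58, adjusted p = 0.00181, with the block (range adjusted p = 0.00181 to 0.162). NFKBIA was also called without DMEM/F12 replicate 1 (-0.69, adjusted p = 0.0237) and without incubation medium replicate 2 (-0.76, adjusted p = 0.014). The JUNB libraries of the media do not overlap, while those of NR4A1 and NFKBIA do.

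The members also varied between libraries of a group. Over members with a mean of at least 10 CPM (38 genes) the median coefficient of variation was 18.9% for fresh cells, 12.9% for DMEM/F12 and 12.2% for incubation medium. Over all 9511 tested genes at that level it was 11.1%, 10.1% and 10.8%. Replicate 2 was the highest fresh library for 22 of the 42 tested members and replicate 1 for 15, while replicate 4 was the lowest for 19 and replicate 3 for 13. These are descriptions of 4 libraries, and no test was made of them. The same ranking was not counted over all tested genes, so it may not be particular to the members.

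Components of the pathways upstream of these genes went both ways; each list groups genes by function. Of 17 tested genes from Ras to ERK, 11 rose and 2 fell in DMEM/F12 and 10 rose and 3 fell in incubation medium (median log2 fold change 0.41 in each). Over all tested genes 35.1% rose and 35.7% fell in DMEM/F12, and 35.8% rose and 35.8% fell in incubation medium; the counts of the lists that follow are read against the same shares. PEBP1, the Raf kinase inhibitor protein, went from 331 ± 13.3 CPM to 439 ± 24.4 and 480.3 ± 25.3 (adjusted p = 1.4e-04 and 9.9e-06). Of 16 JNK and p38 cascade genes, 9 rose and 6 fell in DMEM/F12 and 7 rose and 6 fell in incubation medium (median 0.45 and 0.19). MAP2K3, which activates p38, had log2 fold changes of 0.79 and 0.65, and MAPKAPK2, a p38 substrate kinase, 0.76 and 0.46 (adjusted p = 2.4e-05 and 1.4e-04 for the first, 2.0e-04 and 0.00821 for the second). Among 8 tested EGF receptor ligands and receptors, 4 rose and 3 fell in DMEM/F12 and 3 rose and 3 fell in incubation medium. EGFR, the EGF receptor, fell in both media, from 237 ± 41.7 to 149 ± 24.5 and 148 ± 14.4 CPM (-0.67 and -0.68, adjusted p = 5.0e-04 and 4.5e-04). ERBB3, a receptor of the same family, rose in DMEM/F12 from 82.4 ± 5.17 to 245 ± 12.2 CPM (1.57, adjusted p = 9.7e-10) and was at 85.1 ± 6.09 CPM in incubation medium (0.05, adjusted p = 0.597).

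Of 12 kinases and factors that act on early gene promoters, 6 rose and 4 fell in DMEM/F12 and 3 rose and 5 fell in incubation medium (median 0.08 and 0.07). ELK1, the ternary complex factor that ERK phosphorylates beside SRF, went from 38.5 ± 1.94 CPM to 74.2 ± 3.53 and 57.1 ± 1.42 (0.94 and 0.57, adjusted p = 3.7e-08 and 6.1e-06). RPS6KA3, a kinase activated by ERK, was called in DMEM/F12 (0.27, adjusted p = 0.0335) and not in incubation medium (0.24, adjusted p = 0.0561). Its call in DMEM/F12 was lost without DMEM/F12 replicate 3 or fresh cell replicate 1, 3 or 4 (range adjusted p = 0.00586 to 0.096). In incubation medium it was gained without fresh cell replicate 2 or incubation medium replicate 4, without a low count filter and with only the groups compared (range adjusted p = 0.0246 to 0.139). Among 8 other bZIP partners 3 rose and 2 fell in each medium. ATF2, a partner of JUN, rose from 118 ± 12.7 to 192 ± 14.2 and 225 ± 22.8 CPM (0.70 and 0.93, adjusted p = 1.9e-05 and 1.1e-06), and NFE2L2, the antioxidant factor, was not called (-0.11 and -0.09, adjusted p = 0.303 and 0.414).

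A list of other early response genes, outside the symbol rule, was counted too. The list was chosen with earlier results of these data known, so it is no independent check of the members. Of 28 tested, 18 fell and 4 rose in DMEM/F12 and 19 fell and 2 rose in incubation medium (median log2 fold change -0.87 and -1.24); 35.7% and 35.8% of all tested genes fell. RHOB, an inducible small GTPase, fell from 7569.8 ± 1406 CPM to 219.7 ± 19.6 and 146 ± 9.06 (-5.11 and -5.69, adjusted p = 3.5e-12 and 2.1e-12). CCN2, a matrix-associated growth factor gene induced by stretch, fell from 5039 ± 1899 to 1104 ± 451 and 755 ± 226 CPM (-2.19 and -2.74, adjusted p = 2.1e-05 and 2.8e-06). Delayed targets of ERK follow longer signalling. Of 9 tested, 5 rose in each medium, 3 fell in DMEM/F12 and 2 in incubation medium (median 1.93 and 1.37). HMGA1, a chromatin protein, rose from 70.7 ± 4.77 to 1147 ± 158 and 1264 ± 94.7 CPM (4.02 and 4.16, adjusted p = 4.9e-12 and 3.6e-12).

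NF-κB subunits and targets outside the symbol rule were mixed: of 12 tested, 6 rose and 4 fell in DMEM/F12 and 4 rose and 4 fell in incubation medium. CXCL2, a neutrophil chemokine, was at 1025 ± 346 CPM in fresh cells, 300.4 ± 74.8 in DMEM/F12 and 675 ± 104 in incubation medium (-1.77 and -0.60, adjusted p = 6.7e-06 and 0.023). Its call in incubation medium was lost without fresh cell replicate 1 (-0.56, adjusted p = 0.0527) or 2 (-0.37, adjusted p = 0.111), and without incubation medium replicate 3 (-0.56, adjusted p = 0.0563) or 4 (-0.50, adjusted p = 0.072; range adjusted p = 2.6e-04 to 0.111). CXCL8, another, rose from 24.2 ± 21.6 to 169 ± 41.6 and 709.8 ± 166 CPM (2.79 and 4.86, adjusted p = 4.7e-05 and 3.7e-07). Without fresh cell replicate 1 its log2 fold changes were 3.62 and 5.69.

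Heat shock genes and markers of other cell types moved with the groups, and their part in the results above was not tested. The summed level of 11 heat shock genes was 18006 to 24146 CPM for fresh cells, 3770.5 to 4479 for DMEM/F12 and 3006 to 3852 for incubation medium, and 11 of 11 fell in each medium. HSPA8, a constitutive chaperone, had log2 fold changes of -1.74 and -1.72 (adjusted p = 1.8e-08 and 1.9e-08), and DNAJB1, a heat-inducible co-chaperone, -5.41 and -5.73 (adjusted p = 3.1e-12 and 2.1e-12). Multiciliated cell markers (7 of 12 with a row) summed to 1119 to 1307 CPM in fresh cells, 129 to 327 in DMEM/F12 and 131 to 232 in incubation medium. The secretory markers OVGP1 and SLPI summed to 18776 to 29833, 470 to 1421 and 505 to 1550.5 CPM. For 6 leukocyte markers the ranges were 38.4 to 55.1, 22.5 to 53.03 and 10.5 to 31.6 CPM. They were 60.2 to 94.95, 12.7 to 35.5 and 7.26 to 13.03 CPM for 6 stromal markers, and 41.6 to 57.5, 136 to 252 and 91.2 to 148 CPM for 5 endothelial markers. Of 5 tested leukocyte markers, 1 rose and 3 fell in DMEM/F12, and 0 rose and 4 fell in incubation medium. The 1 that rose was CORO1A, from 3.78 ± 0.693 to 15.4 ± 3.42 CPM (2.03, adjusted p = 9.3e-07). Of 5 tested stromal markers, 2 fell and 3 were not called in DMEM/F12, and 4 fell and 1 was not called in incubation medium. The endothelial list did not move as one either. CDH5 and KDR rose in both media, while PECAM1 fell from 15.1 ± 0.853 to 7.94 ± 1.02 and 8.03 ± 0.798 CPM (-0.93 and -0.91, adjusted p = 2.0e-05 and 2.5e-05). TEK, too low to test, lay lower in both without overlap. No marker with a row was at 0 in all libraries, but VWF and DES had 0 counts in every fresh library. The single red cell marker with a row reached at most 0.187 CPM.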

How the data were processed

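The table held 12 libraries in 3 groups of 4. Per the file headers, the authors deposited 1 expected count and 1 CPM value per gene and library. The submitters' processing notes name fastp 0.24.0, STAR 2.7.11, SAMtools 1.22.1, featureCounts and Subread 2.1.1, with no role or order; the genome build, annotation and any use of strand are not given in the sources used here. Of 30553 rows, 92 were spike-ins (at most 0.00061% of a library's counts) and were left out, and 17202 of 30461 gene rows had no symbol. Deposited counts were not whole in some libraries for genes such as DUSP3 (66.7% of libraries), ZFP36L2 and SPRY1 (50%), ATF3, ZFP36 and ZFP36L1 (41.7%), JUND (33.3%) and EGR1 (25%), so how reads were shared between genes bears on those values; 18 tested members were whole in every library. Without strand, reads of overlapping antisense genes cannot be told apart.

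Counts were rounded to whole numbers, filtered with filterByExpr by group (14070 genes kept), scaled by TMM and fitted with the quasi-likelihood test of edgeR 4.0.16 in R 4.3.3, all 12 libraries in 1 fit. Adjusted p is Benjamini-Hochberg over the 14070 genes for each comparison, and the standard error (SE) is the log2 fold change over the root of F. CPM printed here are TMM-scaled. CPM are not divided by length, since 3′ reads do not scale with it. The tests compare levels between libraries, not genes. Shares of member counts and summed marker CPM add up counts over genes and were not tested. A count of 0 does not show that a gene is absent, and counts of at most 3 were treated as at the floor. The script was tested on simulated data in which few genes changed, whereas most tested genes were called against fresh cells here. That test therefore does not cover the setting of these data. No library was a copy of another: pairs within a group differed at a chi-square of 5.61 to 16.1 for each degree of freedom.

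Members and lists were chosen with earlier results of these data known, so p-values were not adjusted over any list alone. Members with a mean of at least 100 CPM are given by library, those from 10 CPM by mean ± SD, and the rest by group means, counts or range; SPRY2, DUSP4 and DUSP10 are also given by library, chosen after their values were seen. From each pathway list the 2 genes of highest mean CPM are named, except where a gene is not reported here. Replicate numbers in the library names were checked for pairing: deviations from the group means correlated at 0.196 to 0.516 in 12 of 12 same-number pairs, and at -0.318 to 0.0233 between different numbers. The numbers were therefore taken to pair the libraries, from this check and not from the labels, which do not say what they mark. The main fit does not use this pairing, so printed p-values are unpaired except where the replicate block is named. Alternatives were DESeq2 1.42.0, its size factors, library totals, other low count filters, only the groups compared, only whole counts, the replicate block and leaving out each library.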

Additional observations from a re-analysis of the deposited data

Results flagged for a closer look

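In 8 of 114 groups of 4 libraries (38 members with a mean of at least 10 CPM, in 3 groups each) 1 library stood apart from the other 3, by the gap to its neighbour over the range of the group. Chance flags about 1 in 20 groups. Fresh cell replicate 2 was high for FOS (15556 CPM), ATF3 (4393 CPM) and ZFP36L1 (1124 CPM). DMEM/F12 replicate 1 was high for DUSP1 (344 CPM) and DMEM/F12 replicate 4 low for IER5 (58.5 CPM). In incubation medium, replicate 2 was high for PPP1R15A (109 CPM), replicate 1 low for SPRY2 (15.03 CPM) and replicate 4 high for DUSP23 (13.4 CPM). FOS, ATF3, DUSP1, IER5 and PPP1R15A were called lower than fresh cells in both media without any 1 of these libraries.

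For 6 members the change against fresh cells differed between the media and was called in DMEM/F12 alone, by edgeR's quasi-likelihood test of the difference. The log2 differences, incubation medium minus DMEM/F12, were -1.40 for SPRY2, -1.30 for DUSP10, -0.92 for FOSL2, -0.79 for DUSP16, -0.68 for DUSP22 and -0.39 for SPRED2. Libraries of the media did not overlap for any of the 6, with incubation medium lower in 4 of 4 libraries. Such a gap was found for 35.7% of the tested members and 13% of all tested genes. The 6 were picked by a call on this same comparison, so the gap adds no separate evidence. The SPRED2 call was lost in each fit that left out a library of either medium.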

How the results depend on the processing

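Under 7 of the 8 alternatives that use whole groups, 13 members were higher and 24 to 25 lower in DMEM/F12, 7 and 24 in incubation medium, and 2 and 15 to 18 between the media. With only whole counts, 18 members could be tested. Of these 7 were higher and 8 lower in DMEM/F12, 2 and 8 in incubation medium, and 0 and 9 between the media (edgeR; 0 higher and 10 lower at an unadjusted p under 0.05; DESeq2 was not run on this subset), since FOS and SPRY1 were not among the 18. Leaving out 1 library at a time gave 12 to 13 higher and 23 to 25 lower in DMEM/F12, 7 to 8 and 24 to 25 in incubation medium, and 2 and 13 to 14 between the media. The members' share of counts moved by less than the spread between replicates. With library totals in place of TMM 1239 genes were higher and 2471 lower between the media, against 1791 and 1731.

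With the replicate block 18 members were lower between the media; in that setting NR4A1 (-0.56), JUNB (-0.60) and NFKBIA (-0.58) were gained, and no other printed call changed. JUNB and NFKBIA were also called with DESeq2, library totals and no low count filter, and JUNB when the fit held the compared groups alone (-0.60, adjusted p = 0.0268). DUSP19 in DMEM/F12 was not called with library totals (-0.42, adjusted p = 0.0534), no filter (-0.42, adjusted p = 0.105) or whole counts (-0.42, adjusted p = 0.0684); NR4A2 between the media not when the fit held the compared groups alone (-0.42, adjusted p = 0.0957), and SPRED2 not without a filter (-0.40, adjusted p = 0.05002). RPS6KA3 was lost in DMEM/F12 when genes averaged 10 counts or more (0.24, adjusted p = 0.0549) and gained in incubation medium without a filter (0.30, adjusted p = 0.0246) and with the compared groups alone (0.23, adjusted p = 0.043).

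Signs turned only for values not called. DUSP28 in DMEM/F12 was 0.0200 with library totals, 0.0120 without a filter and 0.0136 with whole counts. In incubation medium DUSP16 was 0.0316 and SPRED2 0.0296 without a filter, and SPRED2 0.05004 with whole counts. With 1 library left out, DUSP28 in DMEM/F12 ran from -0.173 to 0.0426 (positive without DMEM/F12 replicate 3). In incubation medium DUSP16 ran from -0.149 to 0.0350 (positive without fresh cell replicate 1 or 2 or incubation medium replicate 1 or 4), DUSP22 from -0.00463 to 0.168 (negative without fresh cell replicate 1) and SPRED2 from -0.129 to 0.0838 (positive without fresh cell replicate 1 or 2 or incubation medium replicate 4). The cause of these changes was not tested. At 5045187 to 8603774 counts per library, the 10 untested members have too few counts to show a difference of modest size.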
